A study of Mus musculus with 60 samples.

Results

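Broad H3K27me3 domains of cells with a wild-type H3 transgene (H3WT) are the subject here: autosomal H3K27me3 peaks of 20 kb or more in the list of H3WT replicate 3 that overlapped a peak of 20 kb or more in the list of H3WT replicate 1. The rule found 237 domains among the 17963 autosomal peaks of the replicate 3 list, out of 20543 peaks on all chromosomes. The domains were thus chosen by measured values, namely peak length and position in the H3WT lists, and the H3WT values below are a description, and tests were run only among the mutants or on the HA tag, which the rule did not use.

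H3K27me3, trimethylation of lysine 27 of histone H3, is written by Polycomb repressive complex 2 and marks genes that are kept silent. Polycomb proteins are recruited to CpG-rich promoters of developmental regulators, and the mark can spread from there over long stretches of chromatin, as it does over silent Hox clusters. In mesenchymal progenitors it covers regulators of other lineages, such as neural, gut and muscle factors.

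The cells were C3H 10T1/2 Clone 8, a mouse mesenchymal progenitor line, profiled by CUT&RUN, which sequences the DNA that an antibody-bound nuclease cuts loose. Each of the 5 groups, H3WT included, carried a lentiviral human H3.1 transgene with C-terminal HA and FLAG tags under an EF1 promoter, either H3WT or with 1 arginine of the tail changed to cysteine (H3R2C, H3R8C, H3R17C, H3R26C). Transduced cells were selected with puromycin as pools and kept their own H3 genes, so the mark was read on all H3, and a lower signal in pooled cells cannot be told apart as fewer marked cells or less mark per cell. The 3 labelled replicates of a group held 2 different lists, since replicates 1 and 2 were identical (in H3R17C, replicates 2 and 3) and were counted as 1 library. H3R17C replicate 1 was left out, which left 9 independent H3K27me3 libraries, 2 per genotype and 1 of H3R17C, and 10 HA libraries. Nothing in the labels says that replicates came from separate transductions, so p-values measure the spread between these libraries only.

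Lists differed in how much they called. The autosomal length under H3K27me3 peaks ranged from 58.1 Mb (H3R26C replicate 3) to 124.9 Mb (H3R2C replicates 1 and 2). The lowest total signal that a peak of a list held ranged from 3400 to 8050 for the same 2 libraries. That value depends on the cutoff of peak calling and is no measure of read depth. Replicate 3 of H3R2C (73.3 Mb) and of H3R26C covered less than their own replicates 1 and 2 (124.9 and 105.9 Mb), and the part of that gap in the coverage values below was not tested. No start site of the 15 mesenchymal progenitor markers lay in an H3WT H3K27me3 peak, nor did any of 13 housekeeping genes. Of 10 markers of epithelial, endothelial, blood and neural cells, 1 lay in a peak and 0 in a domain.

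Sequences before the start sites of genes in these domains are shown because CpG content separated the domains called lower in H3R2C from those called lower in H3R26C. Each is the 250 bases before a RefSeq start site (GRCm38.p6, the build of the files), written along the strand of the gene, with CG in capitals. The first 2 genes lie in domains with lower signal in H3R2C, the next 2 in a domain with lower signal in H3R26C, and the last in a domain with lower signal in H3R8C. They stand at chr7:131542713-131542962 (plus strand), chr16:38902095-38902344 (plus), chr4:88849837-88850086 (plus), chr4:88841566-88841815 (plus) and chr14:32785713-32785962 (plus).
Hmx3: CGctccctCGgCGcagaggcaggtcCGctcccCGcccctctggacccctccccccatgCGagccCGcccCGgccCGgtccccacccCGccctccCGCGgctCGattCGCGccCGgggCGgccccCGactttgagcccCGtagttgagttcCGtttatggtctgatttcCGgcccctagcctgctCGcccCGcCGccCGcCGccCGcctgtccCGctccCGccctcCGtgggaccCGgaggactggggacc
Igsf11: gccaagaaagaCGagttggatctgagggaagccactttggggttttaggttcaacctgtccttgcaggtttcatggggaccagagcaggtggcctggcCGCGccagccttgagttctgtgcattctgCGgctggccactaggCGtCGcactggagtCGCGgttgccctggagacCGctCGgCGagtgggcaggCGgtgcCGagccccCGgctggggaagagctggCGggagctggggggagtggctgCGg
Ifna1: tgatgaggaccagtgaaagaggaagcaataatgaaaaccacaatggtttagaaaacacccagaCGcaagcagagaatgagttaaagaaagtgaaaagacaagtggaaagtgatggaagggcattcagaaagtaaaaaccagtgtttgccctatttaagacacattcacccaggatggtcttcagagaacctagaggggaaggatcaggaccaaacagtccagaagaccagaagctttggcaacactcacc
Ifna4: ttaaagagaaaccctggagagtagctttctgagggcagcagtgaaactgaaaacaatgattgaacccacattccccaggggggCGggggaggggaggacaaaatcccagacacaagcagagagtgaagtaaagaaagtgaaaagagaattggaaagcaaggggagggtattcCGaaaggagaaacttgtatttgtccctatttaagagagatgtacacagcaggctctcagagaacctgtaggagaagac
Tmem273: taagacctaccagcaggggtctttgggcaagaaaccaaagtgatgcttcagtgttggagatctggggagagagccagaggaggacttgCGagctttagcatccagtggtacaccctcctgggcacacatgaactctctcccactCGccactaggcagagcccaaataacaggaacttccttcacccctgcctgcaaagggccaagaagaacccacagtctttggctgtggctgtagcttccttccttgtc
The stretch before Hmx3 holds 31 CG and that before Igsf11 16, while those before Ifna1, Ifna4 and Tmem273 hold 1, 2 and 2. Among 25748 autosomal genes of the RefSeq table, taking the start with the most CG for each, 6.07% had 31 or more and 27.6% had 2 or fewer. Of the 179 protein-coding genes that start in a domain, 123 were matched to the table, and their median was 13 CG against 6 for all genes of the table. The latter were not limited to protein-coding genes. Genes in domains called lower in H3R2C than in H3R8C (38 matched) had a median of 19 CG, and the 4 in domains called lower in H3R26C than in H3R8C had a median of 1.5.

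The 237 domains held 7.60 Mb, with a median length of 27.7 kb and a range of 20.1 to 184.9 kb. They lay on every autosome, with 24 on chromosome 11 and 1 on chromosome 18. A protein-coding start site lay in 134 of them (56.5%), against 31.8% of the 1330 H3WT peaks of 10 to 20 kb and 10.0% of all 17591 shorter autosomal peaks, although start sites per 100 kb were alike in the 3 sets (2.35, 2.56 and 2.37). Their median CpG content was 12.7 per kb, against 10.6 per kb in peaks of 10 to 20 kb. The 3 domains closest above the limit were 20.1, 20.1 and 20.15 kb long, the last at Cd3e, a subunit of the T cell receptor complex. The 3 peaks closest below it were 19.95, 19.85 and 19.85 kb long and had no start site of a protein-coding gene inside.

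Genes of fixed developmental lists, mostly transcription factors, were 68 of the 179 genes that started in a domain, in 45 of the 237 domains. Of 39 Hox genes, which set position along the body axis, 26 started in 5 domains. Of 117 other homeobox genes, 25 started in 24 domains, among them Otx2 (forebrain), Cdx2 (intestine), Nkx2-1 (lung and thyroid) and Pitx1 (hindlimb). Of 38 proneural and myogenic bHLH genes, 8 started in a domain, among them Neurog1, Olig2 and Ptf1a. The share over all 20696 protein-coding genes was 0.865%. Pax genes contributed 2 of 9, forkhead genes 2 of 41, and Sox, Wnt, plexin or semaphorin, cartilage and sine oculis-related (Six3) genes 1 each. T-box, Gata, Fgf, Bmp and Gdf ligand, neurotransmitter receptor, non-clustered protocadherin, bone and fat genes contributed 0.

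**Figure D1:**
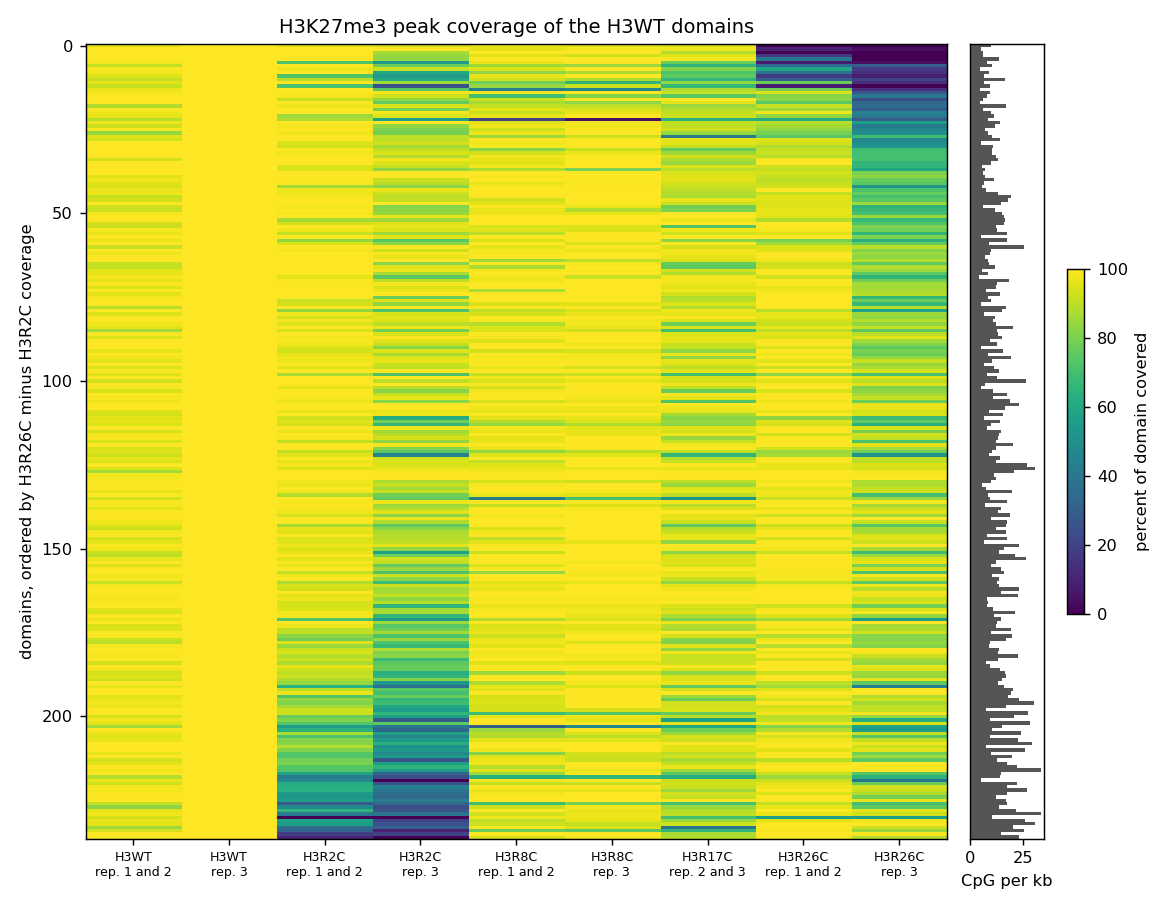
Percent of each of the 237 domains covered by H3K27me3 peaks in the 9 libraries (colour, 0 to 100), 1 line per domain, ordered by mean H3R26C coverage minus mean H3R2C coverage, with the CpG content of each domain at the right. H3R8C lines are near 100 almost throughout, while coverage is low at the bottom in H3R2C and at the top in H3R26C. The order uses these values, and CpG content was not used for it.

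Most domain bases stayed under peaks in every mutant. Peaks covered 96.6% of the domain bases in H3WT replicates 1 and 2. In H3R8C they covered 94.5% and 96.0% (replicates 1 and 2, then replicate 3, in this order throughout), and in H3R17C 89.9%. In H3R2C they covered 89.2% and 77.0%, and in H3R26C 91.8% and 77.7%. H3R8C libraries lay above all H3R2C and H3R26C libraries, whereas H3R17C lay below H3R26C replicates 1 and 2. The mean of H3R2C and H3R26C was 83.9% ± 7.64 (SD, n = 4) and that of H3R8C and H3R17C 93.4% ± 3.19 (SD, n = 3), a difference of -9.51 percentage points (exact permutation test, two-sided, p = 0.114, adjusted 0.267 over 7 tests, where the smallest p the design allows is 0.0571).

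Shorter H3WT peaks were less covered than the domains in every library other than H3WT replicate 3, which defined both. Peaks under 20 kb were covered to 72.2% in H3WT replicates 1 and 2, 72.7% and 52.5% in H3R2C, 70.5% and 45.2% in H3R26C, 67.0% and 74.1% in H3R8C and 59.4% in H3R17C. The domains had to recur in both H3WT lists whereas the shorter peaks came from replicate 3 alone, and the excess of domain coverage over shorter peaks was already 24.4 points in H3WT replicates 1 and 2. It was 16.5 and 24.5 points in H3R2C, 21.2 and 32.5 in H3R26C, 27.5 and 21.9 in H3R8C and 30.4 in H3R17C, so H3R2C and H3R26C libraries lay on both sides of the H3WT value. The means were 23.7 points in H3R2C and H3R26C and 26.6 points in H3R8C and H3R17C (difference -2.91, exact permutation test, two-sided, p = 0.514). With H3WT peaks of 10 to 20 kb in place of all shorter peaks the difference turned to 1.12. The sign therefore depended on the reference peaks.

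The domains broke into pieces in 3 of the libraries. A domain with any peak was overlapped on average by 1.78 and 3.42 peaks in H3R2C, 1.58 and 3.48 in H3R26C, 1.76 and 1.38 in H3R8C, 2.59 in H3R17C and 1.54 in H3WT replicates 1 and 2. The share of domain bases inside a peak that was itself 20 kb or more fell accordingly, from 88.3% in H3WT replicates 1 and 2 to 64.4% and 21.3% in H3R2C, 72.3% and 25.1% in H3R26C and 44.6% in H3R17C, with 71.7% and 83.9% in H3R8C. The 3 libraries with the most pieces were also those with the shortest covered length on the autosomes (58.1, 70.2 and 73.3 Mb), and the part of that length in the pieces was not tested. The difference in pieces between H3R2C with H3R26C and H3R8C with H3R17C was 0.66 (exact permutation test, two-sided, p = 0.343). Domain edges were less covered than middles in every library other than the one that set the edges, for example 65.3% against 79.4% in H3R2C replicate 3 and 90.3% against 97.2% in H3R8C replicate 3.

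**Figure D2:**
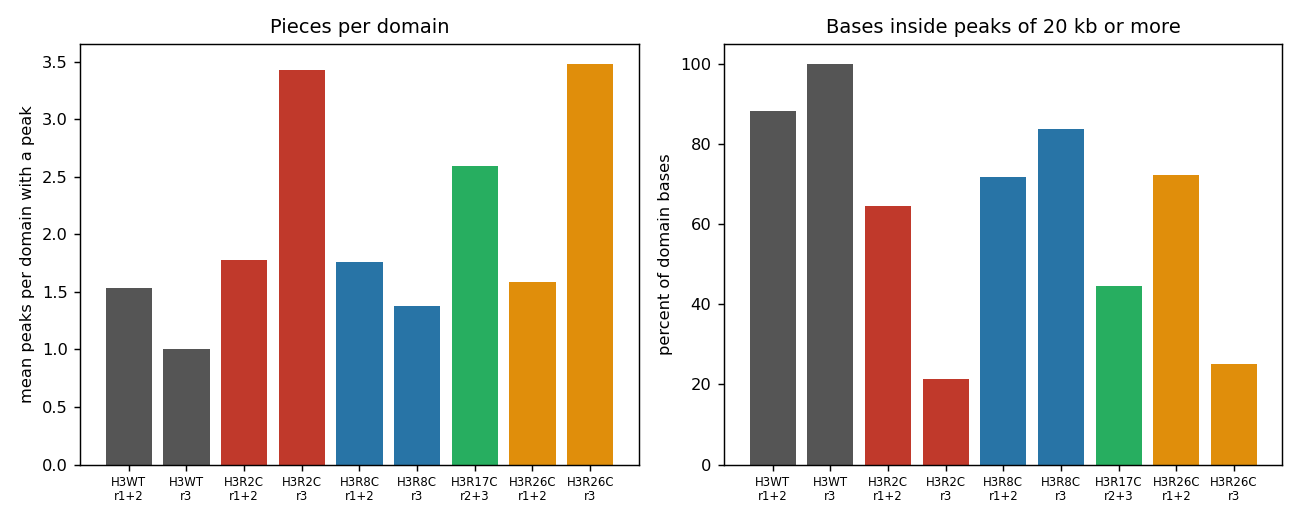
Left, mean number of H3K27me3 peaks per domain with at least 1 peak, and right, percent of domain bases inside peaks of 20 kb or more, as 1 bar for each of the 9 libraries (r1+2, replicates 1 and 2 with identical lists). H3R2C and H3R26C replicate 3 stand apart from their own replicates 1 and 2 in both panels, and H3WT replicate 3 is at 1 piece and 100% because it chose the domains.

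H3K27me3 signal was lower in many domains in H3R2C and in fewer in H3R26C. The signal of a domain is the total signal of its peaks, shared out by length, and scaled to the median H3WT peak that had a peak in each of 6 libraries, so that 1 is the signal of such a peak. Limma with Benjamini-Hochberg adjustment over all 17963 autosomal H3WT peaks called 59 of 237 domains (24.9%) lower in H3R2C than in H3R8C at an adjusted p under 0.05, against a background of 7.23% of all peaks, and 4 domains higher, against 4.79%. H3R26C was lower than H3R8C in 14 domains (5.91%), close to the background of 5.64%, and higher in 1, against 3.12%. Compared directly, H3R2C was lower than H3R26C in 66 domains (27.8%, background 9%) and higher in 13 (5.49%, background 9.48%). The median log2 difference over all domains was -0.34 for H3R2C minus H3R8C, 0.00 for H3R26C minus H3R8C and -0.26 for H3R2C minus H3R26C, and over all peaks it was 0 in each. Broad domains carry more signal than short peaks, and the calls were not matched for signal.

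These counts depended on the scale and on single libraries. With the signal as deposited, unscaled, the calls were 3 lower and 0 higher for H3R2C against H3R8C, 4 and 0 for H3R26C against H3R8C, and 2 lower and 3 higher for H3R2C against H3R26C, and the median over all peaks shifted by -0.08, -0.28 and 0.11. The medians over the domains were then -0.59, -0.55 and 0.03, each below that of all peaks. Over all 17963 peaks the unscaled calls were 444 lower and 304 higher for H3R2C against H3R8C. They were 282 and 144 for H3R26C against H3R8C, and 282 and 326 for H3R2C against H3R26C. The share of domains called lower in H3R2C was thus below that of all peaks in both contrasts. The count of 59 was 9 without H3R8C replicates 1 and 2, 11 without H3R8C replicate 3, 31 without H3R2C replicates 1 and 2 and 21 without H3R2C replicate 3. The 14 domains lower in H3R26C than in H3R8C became 6 without either H3R8C library, 8 without either H3R2C library and 23 without H3R26C replicates 1 and 2. The 66 lower in H3R2C than in H3R26C became 33 and 27 without H3R2C replicates 1 and 2 or replicate 3, 34 and 33 without those of H3R8C, and 44 without H3R26C replicate 3, while the 13 higher became 7 without any 1 library of H3R2C or H3R8C and 24 without H3R26C replicates 1 and 2.

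The domains called lower in H3R2C were rich in genes. A start site lay in 48 of the 59 domains called lower in H3R2C than in H3R8C (81.4%) and in 53 of the 66 lower than in H3R26C, against 134 of 237 overall. Of the 14 domains lower in H3R26C than in H3R8C, 4 had a start site, and of the 13 lower in H3R26C than in H3R2C, 4 did. Median CpG content was 17.3 per kb in the 59 domains and 8.97 per kb in the 14, with 12.7 per kb over all domains.

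Eya1, a transcriptional coactivator in ear, kidney and muscle development, lay in a domain of 24.95 kb (chr1:14291751-14316700) with no peak in either H3R2C library. Coverage there was 93.4% in H3WT replicates 1 and 2, 97.4% and 97.0% in H3R8C, 69.9% in H3R17C and 56.9% and 56.7% in H3R26C. The 2 H3R26C values were close to each other and lay between those of H3R2C and those of H3R8C. The scaled signal was 0 and 0 in H3R2C, 2.95 and 4.75 in H3R26C, and 7.44 and 7.27 in H3R8C (limma adjusted p = 0.00258 for H3R2C against H3R8C, with no fold given against a group listed at 0).

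Zic2, a zinc finger factor of the neural tube, shared with Gm10837 a domain of 36.35 kb (chr14:122465851-122502200), which was 10.6% and 0% covered in H3R2C. It was at least 88.4% covered in every other library. Kcnma1, a calcium-activated potassium channel, had 17.9% and 19.4% of its domain (chr14:23993551-24018350) covered in H3R2C and at least 87.3% elsewhere. Its signal was 0.82 and 1.11 in H3R2C against 9.76 and 8.28 in H3R8C, a log2 difference of -2.94 ± 0.22 (SE, limma adjusted p = 0.00471). In both domains the H3R2C libraries stood far below all others.

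Hmx2 and Hmx3, homeobox genes of the inner ear and hypothalamus, share a domain of 22.4 kb (chr7:131535051-131557450) with 33.3 CpG per kb. Coverage was 40.4% and 38.4% in H3R2C, as 1 remaining piece in each library, and between 89.96% and 97.8% in the other libraries, H3WT replicate 3 aside. The signal was 2.94 and 3.36 in H3R2C, 11.9 and 10.97 in H3R8C, and 12.9 and 14.3 in H3R26C. The log2 difference was -1.78 ± 0.11 against H3R8C and -2.03 ± 0.11 against H3R26C (limma adjusted p = 0.00294 and 0.00251).

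Pitx1 kept more length than signal. Its domain of 21.85 kb (chr13:55820901-55842750) was 81.9% and 62.7% covered in H3R2C and at least 97.9% elsewhere, yet its signal was 3.05 and 3.38 in H3R2C against 10.6 and 10.4 in H3R8C (log2 difference -1.64 ± 0.11, limma adjusted p = 0.00385). Igsf11, an adhesion molecule, had 52.4% and 34.4% coverage in 4 and 7 pieces (chr16:38882551-38925400), with a log2 difference of -1.89 ± 0.09 (limma adjusted p = 0.00258). Tchh, the hair follicle protein trichohyalin, had 47.5% and 23.5% (chr3:93416101-93458100), with a log2 difference of -2.68 ± 0.16 (limma adjusted p = 0.00289). All 3 were within 0.41 log2 of H3R8C in H3R26C, with adjusted p of 0.136 or more.

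**Figure D3:**
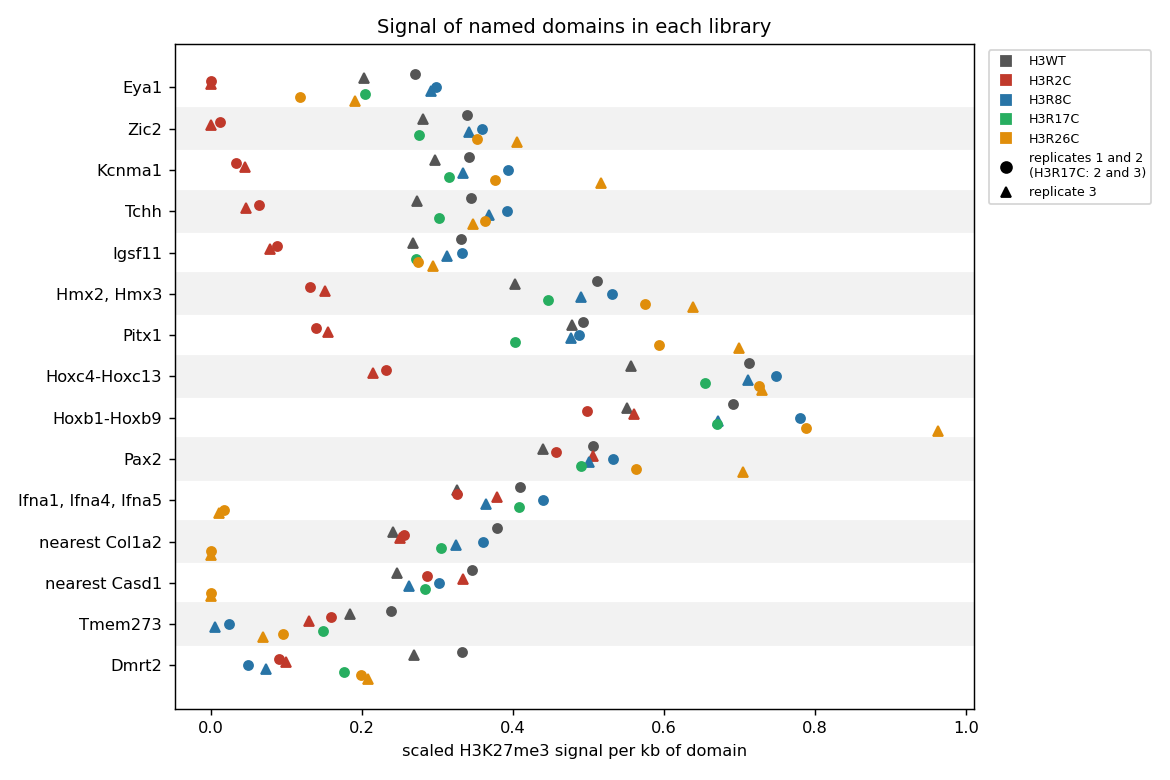
Scaled H3K27me3 signal per kb of domain (1 = the signal of a median shared peak, per kb) for 15 named domains in the 9 libraries, with colour for genotype and shape for replicate. H3R2C points lie lowest from Eya1 to Hoxc4-Hoxc13, H3R26C points lie lowest from the Ifna genes to the domain nearest Casd1, and H3R8C points lie lowest at Tmem273 and Dmrt2.

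Hox clusters differed from each other. The longest domain, 184.9 kb over Hoxc4 to Hoxc13 (chr15:102893001-103077900), was covered to 55.7% and 42.6% in H3R2C, in 5 and 8 pieces, and to at least 97.0% in all other libraries. Its scaled signal was 42.7 and 39.7 in H3R2C, 138.4 and 131.6 in H3R8C and 134.3 and 135.1 in H3R26C. The groups did not overlap, but the test gave a log2 difference of -1.71 ± 0.56 with an adjusted p of 0.166 (limma). The Hoxb1 to Hoxb9 domain of 131.55 kb (chr11:96245801-96377350) was at least 96.0% covered in every library, with a log2 difference of -0.45 ± 0.58 (limma adjusted p = 0.687). Hoxb13 was at least 93.8% covered everywhere. The domain with Evx2 and Hoxd9 to Hoxd13 was 72.8% and 54.7% covered in H3R2C and passed the test (log2 -1.19 ± 0.16, limma adjusted p = 0.0203), while that with Hoxd3 and Hoxd4 was 73.6% and 65.2% covered and did not against H3R8C (log2 -0.63 ± 0.16, limma adjusted p = 0.0969).

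Other developmental regulators were lower in H3R2C in many domains. Of the 24 domains with other homeobox genes, 16 were lower in H3R2C than in H3R8C and 0 higher, with a median log2 difference of -1.05 against -0.34 over all 237 domains, of which 59 were lower. The 4 with the largest differences were Irx4 (log2 -2.58, coverage 32.1% and 9.26%), Otx2 (log2 -2.20, 65.3% and 26.4%), Vax1 (log2 -2.19, 61.6% and 25.7%) and Nkx2-1 (log2 -1.995, 57.2% and 20.0%), factors of heart ventricle, forebrain, eye and lung. Their limma adjusted p were 0.0128, 0.0209, 0.0189 and 0.0271. The median log2 difference between H3R26C and H3R8C over the 24 was 0.19.

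Both forkhead domains were lower in H3R2C, Foxa2, a factor of endoderm and floor plate, with a log2 difference of -1.99, and Foxb1, with -1.37 (limma adjusted p = 0.00512 and 0.0406). Of the 8 bHLH domains 4 were lower: Neurog1, Olig2, Ptf1a and Sim1, with log2 differences of -1.83, -1.60, -1.34 and -1.03. Hand2 (log2 -0.79, limma adjusted p = 0.0526), Neurod2 (log2 -0.08), Olig3 (log2 0.25) and Tcf21 (log2 -0.16) did not pass. Neither Pax domain passed, and Pax2, a kidney and eye factor in a domain of 111.1 kb, was at least 97.4% covered in every library. Col9a1, a cartilage collagen, was lower in H3R2C (log2 -0.81, limma adjusted p = 0.0376), with 84.9% and 66.9% covered. Sema5b, an axon guidance ligand, was lower too (log2 -0.68, limma adjusted p = 0.0141), while Six3, Sox1 and Wnt7a did not pass.

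The domains called lower in H3R26C than in H3R8C were few and mostly without genes. A pair of domains on chromosome 6 (chr6:4331951-4363050 and chr6:4557001-4586500), nearest to Col1a2 at 142443 bp and to Casd1 at 14339 bp, had no peak in either H3R26C library. They were 86.7% to 100% covered in every other library, and the scaled signals were 0 in both H3R26C libraries against 11.2 and 10.1, and 8.91 and 7.72, in H3R8C (limma adjusted p = 0.00271 and 0.00353). HA peaks covered 4.502% and 4.92% of them in H3R26C replicate 3 and 0% of both in H3R26C replicates 1 and 2.

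The domain of the interferon genes Ifna1, Ifna4 and Ifna5 (chr4:88827801-88865850) was 9.72% and 3.15% covered in H3R26C and at least 96.1% elsewhere. Its scaled signal was 0.66 and 0.39 in H3R26C, 12.4 and 14.4 in H3R2C and 16.7 and 13.9 in H3R8C, and H3R26C minus H3R8C was -4.34 ± 0.22 on the log2 scale (limma adjusted p = 0.00353). A domain nearest to Coa6 (chr8:126358401-126385200) was 8.02% and 0% covered in H3R26C, and one nearest to 4930447C04Rik (chr12:72848351-72886500) 7.73% and 3.67%, with 72.2% and 53.6% in H3R2C.

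H3R8C, against which the calls were made, itself had low coverage in a few domains. Tmem273, a membrane protein gene in a domain of 54.65 kb (chr14:32743001-32797650), was 20.1% and 4.48% covered in H3R8C, 62.0% and 28.5% in H3R26C, 63.9% in H3R17C and 88.2% and 56.6% in H3R2C. H3R2C minus H3R8C was 3.21 ± 0.60 in log2 units (limma adjusted p = 0.0467), a call that was lost in 11 of 20 alternative settings. Dmrt2, a factor of somite patterning, was 29.7% and 47.6% covered in H3R8C (chr19:25656351-25692100) and was the 1 domain higher in H3R26C than in H3R8C (log2 1.66 ± 0.19, limma adjusted p = 0.0214), lost in 7 of 20 settings. A gene-free domain on chromosome 2 (chr2:137990801-138016800) was 41.9% and 45.8% covered in H3R8C, and 13.5% in H3R26C replicate 3, and did not pass (limma adjusted p = 0.265 for H3R2C against H3R8C). The other named domains higher in H3R2C than in H3R8C, on chromosome 10 (chr10:22030951-22059100 and chr10:23056101-23077650), differed by 0.54 ± 0.09 and 0.59 ± 0.10 (limma adjusted p = 0.0340 and 0.0355), calls lost in 12 and 11 of 20 settings.

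Under 50% of the length was covered in both H3R2C libraries in 10 domains, in both H3R26C libraries in 11 and in both H3R8C libraries in 3. No such count was taken over all H3WT peaks. Shorter peaks were less covered in each mutant library, so these counts do not set the domains apart. Of the 10, 7 held a start site, and of the 11, 4. Every H3R2C and H3R26C library lay below every H3R8C and H3R17C library in 17 domains (7.17%, background 3.11%), and above in 1 (background 1.59%). The 5 with the largest gap were Eya1 (13.0 points), Dusp15, a phosphatase gene (8.66), Col9a1 (6.07), and domains nearest to 4930447C04Rik (5.50) and Ikzf3 (3.72). The 1 domain with the opposite order (chr14:33029501-33055200, nearest to Lrrc18) was 75.9% to 99.6% covered in H3R2C and H3R26C, 41.8% and 70.4% in H3R8C and 51.8% in H3R17C.

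The bases without a peak differed in CpG content between genotypes. No peak of either H3R2C library lay on 718.8 kb of the domains (9.45%), and none of either H3R26C library on 561.5 kb (7.39%), with 114.2 kb in common, 15.9% of the first and 20.3% of the second. The same figure for H3R8C was 191.2 kb (2.51%). Bases without a peak in H3R2C had 22.8 CpG per kb, and 20.4% of them lay within 2 kb of a start site. Those in H3R26C had 9.26 CpG per kb and 5.20% near a start site, and those in H3R8C 10.8 per kb and 2.75%. Bases covered in both H3R2C libraries had 12.9 CpG per kb, and those covered in both H3R26C libraries 15.1.

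CpG-dense windows differed from CpG-poor ones in opposite directions in H3R2C and H3R26C. In 1 kb windows with more than 40 CpG (423 windows in 122 domains), H3R2C peaks covered 71.7% and 59.5% of the bases, against 90.5% and 76.4% in the 1477 windows with 5 CpG or fewer. In H3R26C the same values were 98.3% and 95.7% in CpG-dense windows against 88.0% and 69.6% in CpG-poor ones. H3R8C had 97.6% and 99.2% against 93.6% and 95.3%, H3R17C 93.5% against 90.8%, and H3WT replicates 1 and 2 98.2% against 97.3%. Both H3R2C libraries were lowest in the CpG-densest windows, and the other 6 libraries were highest there. The fall in H3R2C was limited to windows with more than 20 CpG. Its coverage was 91.6% and 79.1% at 6 to 10 CpG, 91.2% and 80.5% at 11 to 20, and 83.4% and 72.8% at 21 to 40. H3R26C rose over the same classes, with 90.8% and 76.1%, 93.1% and 79.4%, and 97.9% and 89.3%. GC content moved with this: bases without a peak had 47.3% GC in H3R2C and 43.5% in H3R26C, against 45.6% and 46.1% on bases covered in both libraries, and its part in the result was not tested.

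**Figure D4:**
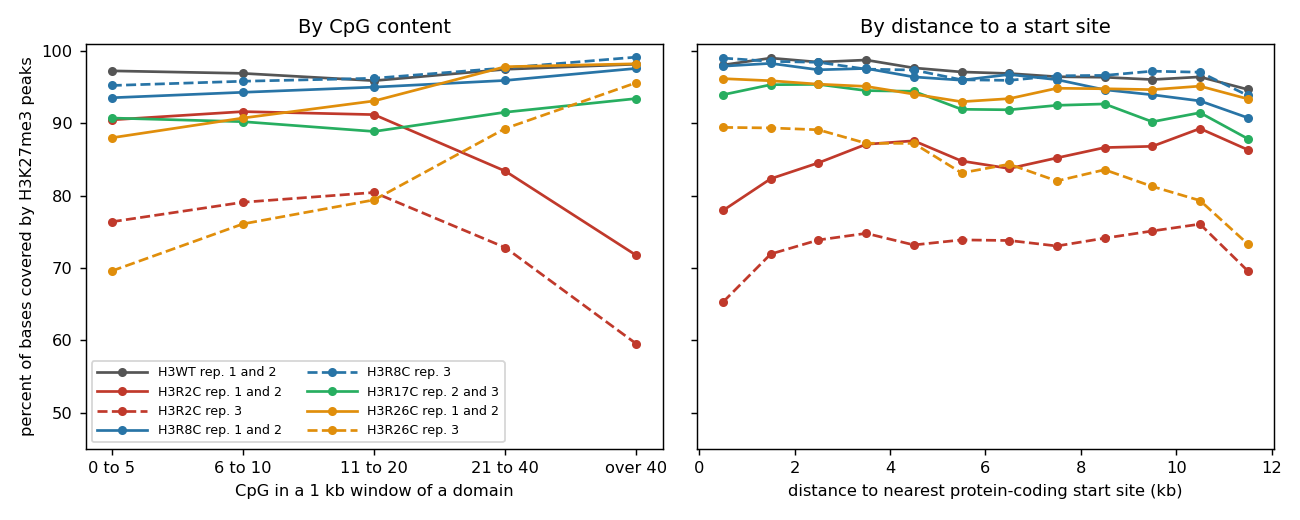
Percent of domain bases under H3K27me3 peaks in 8 libraries, left by the number of CpG in 1 kb windows and right by distance to the nearest protein-coding start site in the same domain (the vertical axis starts at 45%, dashed lines are replicate 3). Both H3R2C lines drop in CpG-dense windows and within 2 kb of start sites, where the H3R26C lines are highest.

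Start sites gave the same contrast. Within 2 kb of a start site H3R2C peaks covered 80.0% and 68.4% of the bases, against 90.2% and 78.0% in the rest of the domains, so differences of -10.2 and -9.58 points. The difference was positive in every other library, 4.81 and 13.1 in H3R26C, 4.09 and 3.18 in H3R8C, 5.34 in H3R17C and 2.16 in H3WT replicates 1 and 2. Pooled as planned, H3R2C and H3R26C averaged -0.47 against 4.20 for H3R8C and H3R17C (difference -4.68, exact permutation test, two-sided, p = 0.514). Since that pools values of opposite sign, H3R2C alone was also set against the other 5 mutant libraries, a comparison chosen after the values were seen, and differed by -16.0 points with no overlap (exact permutation test, two-sided, p = 0.0952, the smallest the design allows, adjusted 0.267). Domains with a start site were covered less than those without by 8.17 and 9.04 points in H3R2C, and more by 5.36 and 12.9 points in H3R26C and by 0.11 to 3.72 points in H3R8C and H3R17C.

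The dip near start sites was a matter of some domains. Of the 134 domains with a start site, coverage near it was lower than in the rest by over 25 points in both H3R2C libraries in 17, and in 0 in H3R8C and 1 in H3R26C. Among the 17 were Foxa2 (-62.5 and -41.1 points), Ptf1a (-75.4 and -51.9), Pou3f2 (-75.7 and -64.3), Col9a1 (-60.5 and -76.9), Barhl2 (-50.4 and -29.4), Emx1 (-39.7 and -39.2), Lbx1 (-36.5 and -38.0), Dmrt2 and Elovl2. In Elovl2, an enzyme of fatty acid elongation with a domain of 123.7 kb (chr13:41123901-41247600), other libraries were lower near the start as well, with -57.5 and -23.1 points in H3R26C, -49.1 in H3R17C and -43.8 in H3WT replicates 1 and 2. The median over the 134 domains was 0 points in H3R2C, 2.07 in H3R8C and 5.98 in H3R26C. The contrast between peaks with and without a start site had the same signs outside the broad domains, at -7.39 and -3.22 points in H3R2C and 4.14 and 10.9 in H3R26C for peaks of 10 to 20 kb, so it was not particular to them.

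Some domains kept their coverage in all libraries, though not always their signal. Lhx1, named below, was called lower in H3R2C than in H3R8C (log2 -0.88, limma adjusted p = 0.0481). At least 90% was covered in each of the 9 libraries in 28 domains, 17 of them with a start site, and among the genes were Hoxb1 to Hoxb9, Hoxb13, Pax2, Evx1, Lhx1, Lhx4, Nkx2-3, Tlx1, Tcf21, Neurod2 and Olig3. Only the domains of Olig3 (20.65 kb) and Sstr5, a somatostatin receptor gene (31.4 kb, named after its values were seen), were a single piece in all 9. Among the longest domains besides Pax2 was the one with Jaml, Mpzl3, Scn2b and Scn4b, adhesion proteins and sodium channel subunits (chr9:45051401-45153650, 102.25 kb), which was 96.9% and 73.8% covered in H3R2C and at least 86.7% in the other libraries.

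The rule looks from H3WT, so it can only show losses against it. Applied in the same way to the other genotypes it found 303 domains in H3R8C, 100 in H3R2C and 68 in H3R26C. Each count is bounded by the autosomal peaks of 20 kb or more in the replicate 3 list. Those lists of H3R2C and H3R26C held the fewest such peaks of all libraries. Replicates 1 and 2 held 636 in H3R2C and 418 in H3R26C, against 353 in H3R8C and 348 in H3WT. The counts thus cannot separate genotype from list, and the part of the lists was not tested. Of the 303 H3R8C domains, 175 overlapped an H3WT domain, of the 100 H3R2C domains 56, and of the 68 H3R26C domains 59. The H3WT libraries covered 88.7% and 90.7% of the H3R2C domains, 98.4% and 98.6% of the H3R26C domains and 91.4% and 92.3% of the H3R8C domains. Broad domains of H3R26C were thus nearly all under H3WT peaks.

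Tagged histone was measured by HA peaks. The H3WT HA lists stood apart in form, with 15344 peaks of median 10.7 kb and 37907 of 2.65 kb, against 46398 to 52083 peaks of 0.80 to 1.60 kb in the mutants. HA peaks covered 21.4% and 11.5% of the domain bases in H3WT, 3.43% and 9.03% in H3R2C, 5.25% and 2.02% in H3R8C, 2.872% and 2.9997% in H3R17C and 2.87% and 3.07% in H3R26C. Divided by the share of the autosomes under HA peaks, this was 2.51 and 2.15 in H3WT, 2.01 and 2.68 in H3R2C, 1.42 and 1.02 in H3R8C, 1.54 and 1.63 in H3R17C and 1.13 and 1.27 in H3R26C. The mutants averaged 1.59 ± 0.54 (SD, n = 8) and H3WT 2.33 ± 0.26 (SD, n = 2), a difference of -0.74 (exact permutation test, two-sided, p = 0.178, adjusted 0.311, smallest possible 0.0444). H3R2C replicate 3 lay above both H3WT libraries, and the other 7 mutant libraries lay below both.

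**Figure D5:**
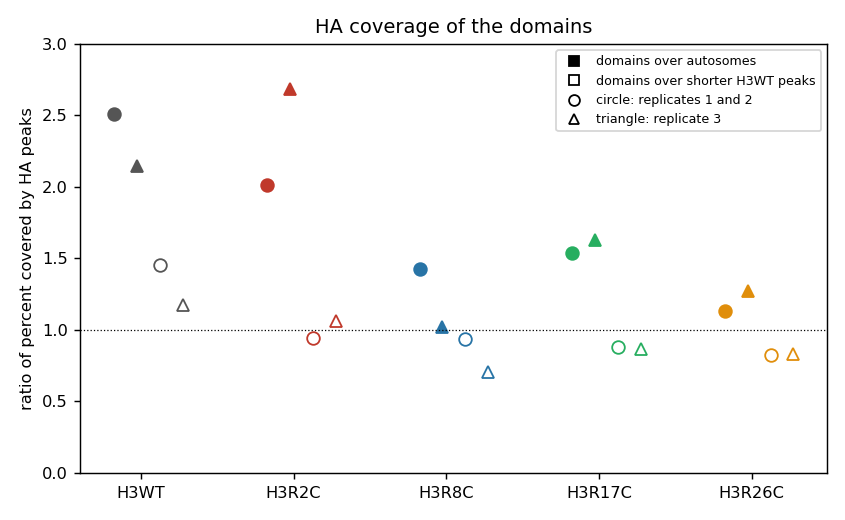
Ratio of the percent of domain bases under HA peaks to the percent of the autosomes (filled) or of shorter H3WT H3K27me3 peaks (open) under HA peaks, for 2 libraries of each of the 5 genotypes. H3WT and H3R2C share the highest filled values, and only the open H3WT values and that of H3R2C replicate 3 are above 1 (dotted line).

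With shorter H3WT H3K27me3 peaks as the reference, an alternative setting, the ratio was 1.46 and 1.17 in H3WT and 0.71 to 1.07 in the mutants. The groups did not overlap (exact permutation test, two-sided, p = 0.0444, the smallest possible, not adjusted). The main test, with the autosomes as the reference, gave p = 0.178 (exact permutation test, two-sided), so the outcome depended on the reference. HA coverage was lower on the bases that H3R2C lacked than on those it kept, in all 10 HA libraries, with 11.2% against 23.9% and 6.08% against 12.9% in H3WT. On the bases that H3R26C lacked it was higher in H3WT (30.9% against 19.5%, and 17.3% against 10.6%) and in H3R26C itself (5.76% against 2.52%, and 7.23% against 2.69%). It was also higher there in H3R8C (11.5% against 4.65%, and 5.47% against 1.63%) and in H3R17C (6.06% against 2.58%, and 4.09% against 2.86%). In H3R2C it was 3.69% against 3.61% and 8.90% against 9.34%. In CpG-dense windows with over 40 CpG the HA libraries were lower than in windows with 11 to 20 CpG in all 10, for example 8.96% against 23.7% in H3WT replicates 1 and 2 and 1.02% against 3.64% in H3R26C replicate 3.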

How the data were processed

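The deposited peak lists of 30 CUT&RUN samples (anti-H3K27me3 and anti-HA, mm10) were used. Per the methods, the authors aligned reads with Rsubread and called peaks in each sample with SEACR 1.3, and the deposited signal columns hold the total and the maximum signal of each peak. Neither read counts nor read depth are in these lists, so no counting interval was given. Domains, coverage, pieces and scaled signal were computed with Python 3.11.15, pandas 2.3.3 and SciPy 1.17.1. Signal was divided by the median over 6670 peaks present in all 6 lists of the fit, and limma 3.58.1 (R 4.3.3, trend) was fitted to log2(scaled signal + 0.25) of H3R2C, H3R8C and H3R26C, 2 libraries each, with Benjamini-Hochberg adjustment over 17963 peaks. Genes were GENCODE protein-coding start sites, and sequences came from RefSeq. Values of whole libraries were compared by exact permutation tests, two-sided. The interval code was tested on simulated data. Domains were named if among the 5 longest, the 3 with the lowest coverage in H3R2C, H3R8C or H3R26C, the 5 with the largest gap between genotypes in each direction, or the 3 with the lowest adjusted p in each direction of each contrast, and genes of the fixed lists were named as well, except 1 domain that is not reported here. Members and lists were chosen with earlier results of these data known. Alternatives covered scaling, pseudocount, signal measure, length limit, libraries left out and the replicate block.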

Additional observations from a re-analysis of the deposited data

Results flagged for a closer look

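Effects in H3R2C and H3R26C against the same H3R8C libraries were compared by a direct test. The 3 domains with the lowest adjusted p in each direction of that test are given here. Other named domains passed as well, among them Eya1, Kcnma1 and Zic2 (limma adjusted p = 0.00277, 0.00382 and 0.00816). H3R2C minus H3R26C was -2.03 on the log2 scale at Hmx2 and Hmx3, -1.72 at Igsf11 and -2.05 at Pitx1 (limma adjusted p = 0.00251, 0.00256 and 0.00257), and H3R2C was the lower in each. It was 4.15 at Ifna1, Ifna4 and Ifna5 (limma adjusted p = 0.0025), where H3R26C was the lower.

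At the 2 chromosome 6 domains, both H3R26C libraries were listed at 0, so the fitted values of 5.02 and 5.23 depend on the pseudocount and are no fold (limma adjusted p = 0.00243 in both).

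Coverage within 2 kb of start sites less that of the rest of the domains differed by -18.8 points between H3R2C and H3R26C (means -9.89 and 8.94), and every library of the first was negative and every library of the second positive. Domains with a start site less those without gave -17.7 points (means -8.60 and 9.11). The difference between these 2 genotypes was not tested.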

How the results depend on the processing

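Depth is not known from the lists, and 2 libraries per genotype limit the tests. The study reported reads for each sample, which were not used here. Several counts rest on single libraries, and leaving one out assumes that the lone library of a genotype varies like the others. Of the values that answer a comparison, 172 kept direction and side of the threshold, or stayed within 1.5 times for counts. Against these, 82 counts moved further, 6 differences newly passed the threshold and 1 changed sign. Those changes are given here, except counts of fits with 1 library left out, and the cause was not tested.

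With H3WT peaks of 10 to 20 kb as the reference, relative coverage turned to 1.12. With the signal as deposited, H3R26C minus H3R8C at chr10:23056101-23077650 turned to -0.03 (-0.027). Counting all labelled replicates, which repeats identical lists, gave -6.82 for coverage (exact permutation p = 0.0433), -15.6 near start sites for H3R2C, -12.4 for domains with against without a start site and -0.82 for HA. The HA difference was -8.00 as percentages and -0.43 against peaks under 20 kb (exact permutation p = 0.0444 for both).

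Leaving out each library gave -12.1 to -7.21 for coverage, -5.85 to -0.52 for relative coverage, 0.35 to 1.00 for pieces, -9.19 to -1.43 near start sites, -16.7 to -14.2 for H3R2C near start sites, -14.2 to -11.0 with against without a start site and -0.92 to -0.56 for HA. Limma calls then numbered 9 to 58 lower (9, 11, 21 and 31 without 1 of the libraries compared) and 0 to 1 higher in H3R2C than in H3R8C, 6 to 23 lower and 0 to 4 higher in H3R26C than in H3R8C, and 27 to 59 lower (33 without H3R2C replicates 1 and 2, 44 without H3R26C replicate 3) and 7 to 24 higher in H3R2C than in H3R26C.

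For limma calls among domains, lower then higher, H3R2C against H3R8C (59 and 4) gave 3 and 0 with the signal as deposited, 35 and 1 divided by the total signal, 20 and 0 with the whole signal of overlapping peaks, 115 and 7 at 15 kb, 14 and 0 at 30 kb, and 133 and 14 with all labelled replicates. The lower count was 37 in the upper 50% of peaks, and the higher count 2 with the maximum signal and 2 without the trend. H3R26C against H3R8C (14 and 1) gave 4 and 0 as deposited, 8 and 0 with the whole signal, 7 and 3 with the maximum signal, 41 and 7 at 15 kb, 4 and 0 at 30 kb, 22 and 5 with H3R17C and H3WT added, and 62 and 27 with all labelled replicates. Its higher count was 2 with a pseudocount of 1, 5 among peaks present in every list and 2 in the upper 50%. H3R2C against H3R26C (66 and 13) gave 2 and 3 as deposited, 136 and 42 at 15 kb, 20 and 4 at 30 kb, and 112 and 39 with all labelled replicates. Its lower count was 39 divided by the total signal and 30 with the whole signal, and its higher count 5 with the maximum signal and 21 with H3R17C and H3WT added. At an adjusted p under 0.001 limma called 0 domains in every contrast and direction, with 102 and 12, 45 and 23, and 91 and 34 at an unadjusted p under 0.05.

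Replicate numbers did not pair the libraries (correlations of deviations -0.005, 0.028 and -0.024). With the replicate block, calls were 19 and 0 for H3R2C against H3R8C, 6 lower for H3R26C against H3R8C and 40 lower for H3R2C against H3R26C. The blocked coverage difference was -11.3 (exact permutation p = 0.222) and the blocked HA difference -0.74.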
